A study of Mus musculus with 12 samples.

Results

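The NRF2 antioxidant genes described here are 10 mouse genes, Nfe2l2, Keap1, Hmox1, Nqo1, Gclc, Gclm, Txnrd1, Srxn1, Slc7a11 and Gsr. They were picked by name, as the transcription factor NRF2, its repressor and 8 genes of the antioxidant program it drives, out of 29737 genes in the count table. All 10 passed the filter on low counts, which left 16761 genes for testing. RNA was sequenced from neutrophils taken from the bone marrow of wild-type mice, enriched with EasySep magnetic beads as Ly6G+ cells and kept in RPMI medium with fetal bovine serum. Each culture received PBS (the control), 200 μM TCA (taurocholic acid), Tβ-MCA (tauro-β-muricholic acid) or 200 μM GCA (glycocholic acid) for 24 h, and each of these 4 groups had 3 samples. The samples' labels give 10 μM for Tβ-MCA, whereas the methods text gives 200 μM, so its dose relative to TCA is unsettled. All 4 groups have the genotype WT in the labels, and the methods text names female C57BL/6 mice aged 4 to 6 weeks for the animal work without tying them to these samples. The labels do not say whether samples came from separate mice, so p-values measure only the spread between these samples.

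NRF2, encoded by Nfe2l2, is a transcription factor that pairs with small MAF proteins on antioxidant response elements in DNA. KEAP1 holds NRF2 in the cytoplasm and hands it to a CUL3 ubiquitin ligase for destruction, until oxidants or electrophiles modify cysteines of KEAP1 and NRF2 accumulates. Because this switch acts on the protein, transcripts of the targets are the usual readout of NRF2 activity, while neutrophils, which make superoxide on purpose, rely on the same glutathione and thioredoxin enzymes for their own protection.

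Promoter sequences are shown for the members on which the results turn, Keap1 and Slc7a11, and for Srxn1, a target with a compact pair of elements. The sequences are the 250 bases before the start site in RefSeq on GRCm38.p6, which held 9 promoters of 7 of the 10 members and none of Hmox1, Gclc or Gsr. Capitals mark matches, on either strand, to the antioxidant response element core TGACNNNGC, to the AP-1 and CNC core TGANTCA or to the ATF4 and C/EBP composite element TGATGCAAA. The first 2 motifs can fall on the same bases, but none of the matches found here overlapped another.
Keap1, chr9:21239333-21239582, minus strand: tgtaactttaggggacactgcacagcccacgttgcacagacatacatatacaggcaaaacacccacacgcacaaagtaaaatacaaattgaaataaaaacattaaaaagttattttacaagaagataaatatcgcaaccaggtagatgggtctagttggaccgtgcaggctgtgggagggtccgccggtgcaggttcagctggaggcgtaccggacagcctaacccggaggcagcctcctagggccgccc
Slc7a11, chr3:50443614-50443863, minus strand: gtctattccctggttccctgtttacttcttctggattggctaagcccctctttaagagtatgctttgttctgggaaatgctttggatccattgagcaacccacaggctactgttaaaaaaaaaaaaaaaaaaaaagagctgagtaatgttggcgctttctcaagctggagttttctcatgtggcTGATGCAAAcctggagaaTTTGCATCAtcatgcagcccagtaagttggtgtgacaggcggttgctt
Srxn1, chr2:152105274-152105523, plus strand: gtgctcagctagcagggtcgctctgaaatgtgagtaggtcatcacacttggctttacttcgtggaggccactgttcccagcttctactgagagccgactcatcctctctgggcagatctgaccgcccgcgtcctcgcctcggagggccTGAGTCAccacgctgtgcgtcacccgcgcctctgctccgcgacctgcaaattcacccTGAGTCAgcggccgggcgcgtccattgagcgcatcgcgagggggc

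The Keap1 window held no match to the 3 motifs. The Slc7a11 window held the ATF4 and C/EBP composite element in both orientations, TGATGCAAA starting 66 bases and TTTGCATCA starting 48 bases before the start site, and was the only member promoter with it, against 0.225% of the 32851 promoters in the table. Both Srxn1 matches read TGAGTCA, starting 102 and 45 bases before the start site, and 6.75% of all promoters held this core. The antioxidant response element core was in 3 of the 9 member promoters, those of Nfe2l2 (TGACTCCGC), Gclm (GCACCGTCA, on the other strand) and 1 of the 3 promoters of Txnrd1 (GCTTTGTCA, on the other strand), and in 10.2% of all promoters. The Nqo1 window held none of the 3 motifs. These matches describe letters in a short window, and binding was not measured.

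The 12 libraries held 32757389 to 41375925 counts on genes, and the lowest count of any member was 301. Levels are given in CPM, a gene's counts scaled to the library's total times a normalization factor of 0.9719 to 1.031. The limit that a count of 0 allows is 3 counts, which equal 0.0725 to 0.0931 CPM. This limit covers counting error only. Markers of neutrophils were abundant in all groups, with a summed level of 12 of 12 markers between 41710 and 63400 CPM, whereas erythroid markers summed to at most 3.384 CPM and T and NK cell markers to at most 2.619 CPM, with Klrb1c at 0 in all PBS and Tβ-MCA samples. Over the 12 samples the sums were 29.65 to 65.38 CPM for basophil and mast cell, 37.78 to 58.25 CPM for B cell and 15.47 to 39.41 CPM for dendritic cell markers. The neutrophil sum was lower with Tβ-MCA, at 41710 to 47140 CPM, than with PBS, at 51350 to 63400 CPM, and these ranges did not overlap. Ly6g, which encodes the surface marker Ly6G of the enriched cells, was at 7.538, 8.317 and 12.9 CPM with Tβ-MCA and at 17.8 to 21.4 CPM with PBS. The eosinophil marker sum was also lower with Tβ-MCA (57.57 to 129.7 CPM) than with PBS (144.4 to 253.7 CPM). The monocyte and macrophage sum was 313.4, 405.5 and 585.9 CPM against 526.3 to 666.9 CPM. The dendritic cell sum was 15.47 to 24.2 CPM against 24.54 to 32.39 CPM, and most of it was Flt3 (mean 16.54 against 23.23 CPM). Of the 5 dendritic cell markers tested, 3 were higher with Tβ-MCA, and 0 had an adjusted p under 0.05 by edgeR. The T and NK cell sum was low, at 1.197 to 1.35 CPM against 1.375 to 2.619 CPM, and 0 of its 3 tested markers had such a p. Among single genes, 27.0% of all tested had Tβ-MCA and PBS samples that did not overlap. The part of these shifts in the results below was not tested, and in bulk samples fewer cells of a type and less RNA per cell cannot be told apart. Tβ-MCA replicate 5 was the nearest to PBS of its group in Ly6g and in the monocyte and macrophage sum, and leaving it out raised the genes called against PBS from 1278 to 3076, so calls of members are also given without it.

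Per exon length, the members fell into 2 tiers in these neutrophils. Gsr, glutathione reductase, which turns oxidized glutathione back to its reduced form with NADPH, had the highest level, with a mean of 256.9 RPKM (counts divided by exon length and by library size) over the 12 samples and a range of 239.5 to 288.4 RPKM. This put Gsr at rank 191 of the 16761 genes tested. Hmox1, heme oxygenase 1, which splits heme into biliverdin, iron and carbon monoxide, followed at 120.1 RPKM (108.6 to 133.4). The sample ranges of Gsr and Hmox1 overlapped neither each other nor those of the other members. Txnrd1, the cytosolic thioredoxin reductase, at 45.75 RPKM (41.23 to 52.71), and Nfe2l2, at 40.24 RPKM (36.35 to 47.41), overlapped. The lower tier began with Keap1 at 10.23 RPKM, then Nqo1 at 9.517, Gclm at 8.85, Gclc at 7.581, Srxn1 at 6.71 and Slc7a11 at 4.606 RPKM, and each of these 6 overlapped its neighbours in the order. Nfe2l2 was thus listed at a higher level than its repressor Keap1 in each of the 12 samples.

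**Figure D1:**
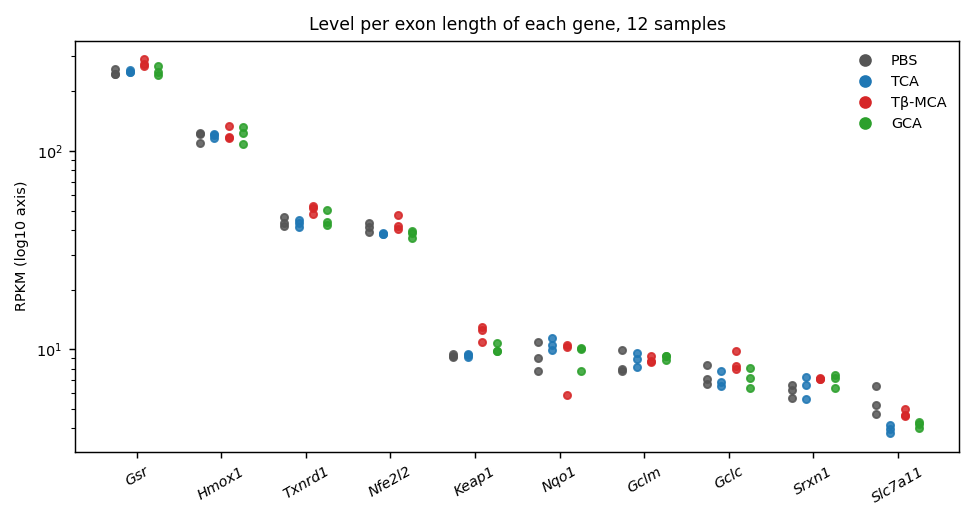
Level of each NRF2 antioxidant gene in RPKM on a log10 axis, with 1 point per sample and the 4 groups in colours side by side. Gsr (mean 256.9 RPKM) and Hmox1 (120.1 RPKM) stand above the rest, Txnrd1 and Nfe2l2 share a level of 36.35 to 52.71 RPKM, and the other 6 genes lie between 3.792 and 13.02 RPKM.

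Replicates were close for most members. The standard deviation within groups on the log2 CPM scale was smallest for Gsr (0.0427) and was 0.0675 for Keap1, 0.0682 for Nfe2l2 and 0.0761 for Txnrd1. It was 0.272 for Nqo1, the only member above the median of 0.162 over all genes tested. Small fold changes could thus be resolved for Gsr, Keap1, Nfe2l2 and Txnrd1 better than for Nqo1.

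Tβ-MCA was compared with PBS to ask how this taurine-conjugated primary bile acid altered the neutrophils. Of the 10 members only Keap1 was called, at an adjusted p under 0.05 in edgeR's quasi-likelihood test, and it was higher, whereas 7.62% of all genes tested were called in this comparison. Without Tβ-MCA replicate 5, Keap1 was again the only member called, against 18.0% of all genes. Unadjusted p was under 0.05 for 3 members, Keap1 and Txnrd1 (higher) and Slc7a11 (lower), where 24.9% of all genes had such a p. No member passed the thresholds of the study, an unadjusted p under 0.05 with at least 2-fold change, which 2.95% of all genes did. The members' median log2 fold change was 0.06, beside 0.00 over all genes, and their fold changes lay between 0.842 and 1.26.

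Keap1, the repressor of NRF2, lies on chromosome 9 at 21229730 to 21239361 on the minus strand. Its level was 43.92, 44.93 and 43.55 CPM with PBS and 57.34, 59.3 and 50.35 CPM with Tβ-MCA. The 3 Tβ-MCA samples were all above the 3 PBS samples, and replicate 5 was the lowest of them. Keap1 rose 1.26-fold (95% CI 1.14 to 1.4, log2 fold change 0.33 with SE 0.0698, adjusted p = 0.0208 by edgeR). Without Tβ-MCA replicate 5 the log2 fold change was 0.40 (adjusted p = 0.000808), and leaving out any of the other 5 samples ended the call, with adjusted p up to 0.118 and log2 fold changes of at least 0.29, as did a fit of only these 2 groups (adjusted p = 0.0696). Keap1 shares 510 of its 4693 exon bases with Gm16754, a gene on the opposite strand. A strand setting of the counting is not given in the sources used here. Reads of the 2 genes on the shared bases therefore cannot be told apart, and the value of Keap1 is uncertain. Gm16754 was at 22.89, 24.89 and 24.05 CPM with PBS and at 30.48, 32.94 and 28.45 CPM with Tβ-MCA, a log2 fold change of 0.35 (adjusted p = 0.0226 by edgeR).

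Nfe2l2 itself had overlapping levels in these groups. It was at 151.8, 166 and 157 CPM with PBS and at 155.6, 174.6 and 151.4 CPM with Tβ-MCA, 1.01-fold (95% CI 0.923 to 1.12, adjusted p = 0.884 by edgeR). The repressor and the factor were therefore measured with intervals that did not overlap, 1.14 to 1.4 and 0.923 to 1.12.

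The members that supply and recycle glutathione did not share a direction. Slc7a11, the cystine importer that feeds glutathione synthesis, was at 93.09, 73.39 and 65.67 CPM with PBS and at 63.18, 67.97 and 64.4 CPM with Tβ-MCA. Its 2 groups overlapped, since PBS replicate 3 was far above the other PBS samples, and the fold was 0.842 (95% CI 0.728 to 0.975, adjusted p = 0.134 by edgeR). Without PBS replicate 3 its log2 fold change went from -0.25 to -0.09. With replicate numbers in the fit as a block, Slc7a11 had a log2 fold change of -0.36 (adjusted p = 0.0197 by edgeR). That pairing with PBS rests on 2 shared numbers and is not established. Gclc, the catalytic subunit of glutamate cysteine ligase, the rate-limiting enzyme of glutathione synthesis, was at 32.19, 25.45 and 26.64 CPM with PBS and at 36.19, 30.11 and 29.66 CPM with Tβ-MCA, 1.14-fold (95% CI 0.963 to 1.35, adjusted p = 0.329). Gclm, the modifier subunit of that ligase, was at 64.09, 50.52 and 48.81 CPM against 53.78, 56.76 and 53.34 CPM, with a log2 fold change of 0.00 (95% CI of the fold 0.871 to 1.16). The subunits thus differed in their point estimates, while neither passed the test, and the Gclm counts are uncertain because 296 and 244 of its exon bases are shared with Gm17494 and Gm6061. Gsr was at 685.3, 718.9 and 675 CPM with PBS and at 736.8, 770.6 and 725.4 CPM with Tβ-MCA, higher in all 3 samples, 1.07-fold (95% CI 0.988 to 1.17, adjusted p = 0.278 by edgeR).

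In the thioredoxin branch both members had their 3 Tβ-MCA samples above the 3 PBS samples, without passing the adjusted test. Txnrd1 was at 162.2, 144.8 and 147.6 CPM with PBS and at 172.1, 174.8 and 162.4 CPM with Tβ-MCA, 1.12-fold (95% CI 1.01 to 1.24, adjusted p = 0.142 by edgeR). The highest PBS sample of Txnrd1 and its lowest Tβ-MCA sample almost met. Srxn1, sulfiredoxin, which repairs overoxidized peroxiredoxins, was at 18.07, 16.27 and 18.63 CPM with PBS and at 19.89, 19.39 and 19.73 CPM with Tβ-MCA, 1.11-fold (95% CI 0.969 to 1.28, adjusted p = 0.329). With Keap1 and Gsr, these made 4 members whose Tβ-MCA samples were all above PBS and 0 whose samples were all below, and 27.0% of all genes tested had groups that did not overlap in either direction.

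The members of heme and quinone metabolism, which are common reporters of NRF2, stayed near the control in their point estimates. Hmox1 was at 197, 217.3 and 212.2 CPM with PBS and at 199.5, 226.6 and 202.3 CPM with Tβ-MCA. The groups of Hmox1 overlapped, and its fold had a 95% CI of 0.898 to 1.12 (adjusted p = 0.979 by edgeR). Nqo1, the quinone reductase, was at 12.36, 14.18 and 16.88 CPM with PBS and at 9.004, 15.53 and 16.03 CPM with Tβ-MCA, 0.935-fold (95% CI 0.706 to 1.24). Its interval was the widest of the members, and Tβ-MCA replicate 3 was the lowest of the 12 samples.

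**Figure D2:**
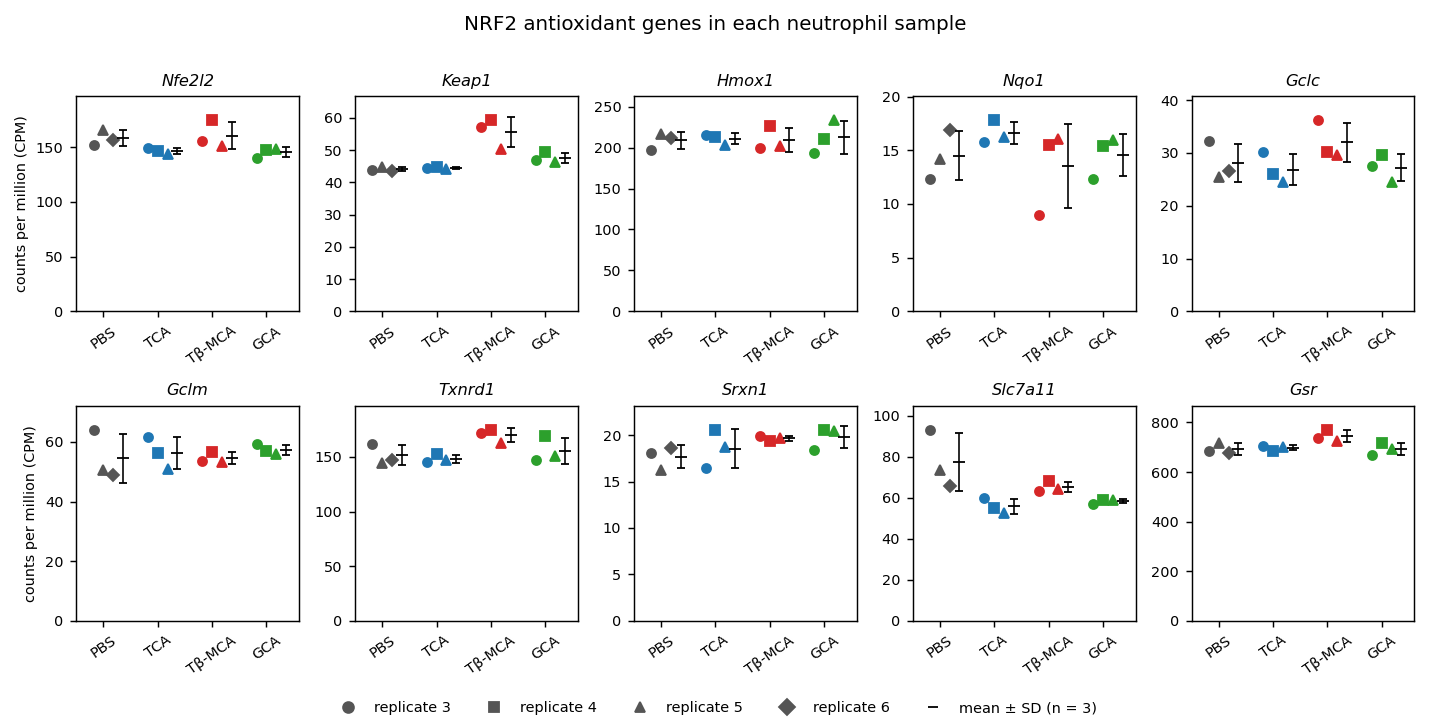
CPM of each NRF2 antioxidant gene in every sample, 1 panel per gene with axes from 0, where the marker shape gives the replicate number of the label and black bars the mean ± SD of 3 samples. Keap1 with Tβ-MCA (50.35 to 59.3 CPM) lies above the other 3 groups (43.55 to 49.38 CPM), Slc7a11 is highest in the PBS samples (65.67 to 93.09 CPM) apart from an overlap with Tβ-MCA, and the groups of most other genes overlap.

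TCA, the taurine conjugate of cholic acid, was compared with the same PBS samples. No member was called by edgeR, and none by DESeq2 or limma, where edgeR called 0% of all genes tested. Unadjusted p was under 0.05 for 1 member, Slc7a11, and for 3.26% of all genes. No member and 0.465% of all genes passed the study's thresholds. Slc7a11 was at 59.8, 55.08 and 52.71 CPM with TCA, below the 65.67 to 93.09 CPM of the 3 PBS samples. Its fold was 0.722 (95% CI 0.623 to 0.836, log2 fold change -0.47 with SE 0.0995; unadjusted p = 0.000252 and adjusted p = 1 by edgeR). Without PBS replicate 3 the log2 fold change was -0.32 (unadjusted p = 0.000908 by edgeR). The call of Slc7a11 depended on the setting, since edgeR without a filter on low counts called it (adjusted p = 0.00024) among 37 genes. With the filter kept and replicate numbers in the fit as a block, its adjusted p was 0.0119 by edgeR. That pairing with PBS rests on 2 shared numbers and is not established.

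Nfe2l2 was at 149.4, 146.6 and 144.2 CPM with TCA, also below the 3 PBS samples, but by a smaller fold of 0.927 (95% CI 0.844 to 1.02). These were the 2 members whose TCA and PBS samples did not overlap, both lower, against 9.67% of all genes in either direction. Keap1, which rose with Tβ-MCA, was at 44.45, 44.69 and 44.02 CPM with TCA, 1.01-fold (95% CI 0.907 to 1.11). The other 7 members had folds from 0.955 to 1.15. Of these, Nqo1 was highest relative to PBS (15.79, 17.79 and 16.27 CPM, 1.15-fold) with a wide interval of 0.868 to 1.52.

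GCA, the glycine conjugate of cholic acid, was compared with the same PBS samples, which all 3 bile acids share as their control. No member was called by edgeR, DESeq2 or limma, and edgeR called 0% of all genes. Slc7a11 was again the only member with an unadjusted p under 0.05, where 3.53% of all genes had 1. No member passed the study's thresholds, which 0.531% of all genes did. Slc7a11 was at 57.15, 58.86 and 59 CPM with GCA, 0.754-fold (95% CI 0.651 to 0.873; unadjusted p = 9e-04 and adjusted p = 0.999 by edgeR). Without PBS replicate 3 its log2 fold change was -0.25 in place of -0.41, and without a filter on low counts edgeR called it (adjusted p = 0.00688) among 36 genes. All 3 GCA samples of Slc7a11 were below all 3 PBS samples, as were those of Nfe2l2 (140.4, 147.5 and 148.3 CPM, 0.919-fold, 95% CI 0.836 to 1.01). Keap1 was at 47.1, 49.38 and 46.29 CPM, above all 3 PBS samples, with a fold of 1.08 (95% CI 0.973 to 1.2). Together 3 members did not overlap between GCA and PBS, 1 higher and 2 lower, and 9.55% of all genes did not. Srxn1 was at 18.39, 20.54 and 20.39 CPM with GCA, 1.12-fold (95% CI 0.974 to 1.29), and the other 6 members had folds from 0.969 to 1.05.

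**Figure D3:**
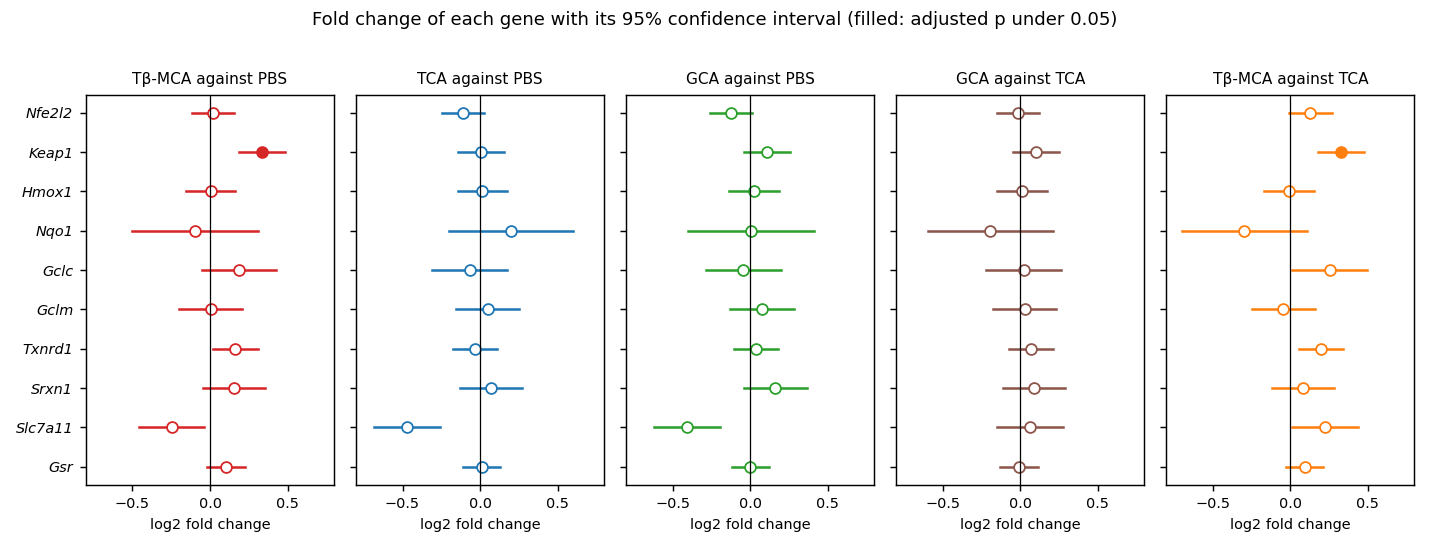
Log2 fold change of each NRF2 antioxidant gene in the 5 comparisons, with points for the estimate, lines for the 95% confidence interval and filled points for an adjusted p under 0.05. Keap1 is filled in both comparisons of Tβ-MCA (0.33 against PBS and 0.33 against TCA), and the intervals of Slc7a11 lie below 0 in the 3 comparisons with PBS, which share the control samples.

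GCA and TCA were used at the same dose of 200 μM and share the cholic acid core, so their difference is that of glycine against taurine. No member differed between them in edgeR, DESeq2 or limma at an adjusted p under 0.05, and none had an unadjusted p under 0.05, where 0% and 2.46% of all genes did in edgeR. Likewise no member and 0.442% of all genes passed the study's thresholds. Folds of GCA over TCA lay between 0.874 (Nqo1, 95% CI 0.661 to 1.16) and 1.07 (Keap1, 95% CI 0.967 to 1.19), and the intervals of all 10 members included 1. Apart from Nqo1, no interval reached below 0.858 or above 1.22, so that a larger difference of the other 9 members lay outside their intervals. Keap1 was the only member whose groups did not overlap (46.29 to 49.38 CPM with GCA and 44.02 to 44.69 CPM with TCA), beside 8.0% of all genes. Slc7a11 was at 57.15 to 59 CPM with GCA and at 52.71 to 59.8 CPM with TCA, 1.04-fold (95% CI 0.902 to 1.21), a difference smaller than the spread between replicates.

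Tβ-MCA and TCA are both taurine conjugates and differ in the bile acid core, but their labelled doses of 10 and 200 μM differ too, so that core and dose cannot be told apart. Only Keap1 was called, where 3.51% of all genes were, and it rose 1.25-fold with Tβ-MCA over TCA (95% CI 1.13 to 1.39, adjusted p = 0.0346 by edgeR). A pairing of these samples by replicate number is not established, since only the pair numbered 3 correlated above every differently numbered pair. With the numbers in the fit as a block, 4 members were called, all higher with Tβ-MCA. Their adjusted p by edgeR was 0.00577 for Keap1, 0.0254 for Txnrd1, 0.0397 for Gclc and 0.047 for Slc7a11, and these values rest on that pairing. Under the block the call of 588 genes became 2322 over the whole table, 13.9% of all genes. Without Tβ-MCA replicate 5 and without the block, 2 members were called, Keap1 (adjusted p = 0.0011) and Txnrd1 (adjusted p = 0.048), against 15.3% of all genes. Leaving out any other of the 6 samples ended the call of Keap1, with adjusted p up to 0.171, as did limma (adjusted p = 0.0626) and a fit of only the 2 groups (adjusted p = 0.0742). Its antisense neighbour Gm16754 had a log2 fold change of 0.34 here (adjusted p = 0.0366 by edgeR).

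Unadjusted p was under 0.05 for 4 members in this comparison, Keap1, Txnrd1, Gclc and Slc7a11, and for 22.2% of all genes. None passed the study's thresholds, which 2.79% of all genes did. The 3 Tβ-MCA samples lay above the 3 TCA samples for 5 members, Nfe2l2, Keap1, Txnrd1, Slc7a11 and Gsr, and below them for 0, while 25.3% of all genes did not overlap in either direction. Txnrd1 was at 162.4 to 174.8 CPM with Tβ-MCA and at 145 to 152.3 CPM with TCA, 1.15-fold (95% CI 1.04 to 1.27, adjusted p = 0.1 without the block). Slc7a11 was at 63.18 to 67.97 CPM against 52.71 to 59.8 CPM, 1.17-fold (95% CI 1.01 to 1.35, adjusted p = 0.2 without the block). Gclc was at 29.66 to 36.19 CPM against 24.53 to 30.09 CPM, 1.19-fold (95% CI 1.01 to 1.41, adjusted p = 0.203 without the block), and its groups overlapped. Hmox1 and Gclm had folds of 0.994 (95% CI 0.89 to 1.11) and 0.97 (95% CI 0.842 to 1.12), and Nqo1 of 0.815 (95% CI 0.616 to 1.08).

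The wider antioxidant network was read from 6 lists with 91 genes, of which 86 were tested. With Tβ-MCA against PBS, 11 of the 86 genes were called by edgeR, 6 higher and 5 lower, beside 7.62% of all genes, and the median log2 fold change of each list is given beside that of 0.00 over all genes. Of 13 partners and regulators of NRF2, only Nfe2, a CNC relative of NRF2 that drives globin and platelet genes, was called, and it fell, while the list had a median log2 fold change of 0.00. Its level was 147.6, 138.4 and 124 CPM with PBS and 92.13, 100.4 and 113.1 CPM with Tβ-MCA, 0.746-fold (95% CI 0.654 to 0.851, adjusted p = 0.0211). The groups did not overlap, and Tβ-MCA replicate 5 was again nearest to PBS.

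Among 21 genes of glutathione synthesis, use and transfer, 1 was called higher and 3 lower, with a median log2 fold change of -0.09. Chac2, a cytosolic enzyme that breaks down glutathione, fell 0.631-fold (95% CI 0.508 to 0.785, adjusted p = 0.0237). Glrx, glutaredoxin, which uses glutathione to free protein thiols, fell 0.731-fold (95% CI 0.624 to 0.857, adjusted p = 0.0278), and Mgst1, a microsomal glutathione transferase, fell 0.824-fold (95% CI 0.742 to 0.915, adjusted p = 0.032). All 3 genes had their Tβ-MCA samples below the PBS samples, with Glrx at 26.8, 26.6 and 33.46 CPM against 37.19 to 43.2 CPM. Gstk1, a mitochondrial and peroxisomal glutathione transferase, rose 2.36-fold (95% CI 1.41 to 3.94, adjusted p = 0.0431) and was named after its value was seen. Its level was low, at 0.6598, 0.5591 and 0.4315 CPM with PBS and at 1.615, 1.566 and 0.7227 CPM with Tβ-MCA, where replicate 5 was nearest to PBS. In the thioredoxin and peroxide list of 14 genes, 1 rose and 1 fell, with a median log2 fold change of 0.04. Prdx5, a peroxiredoxin, fell 0.718-fold (95% CI 0.631 to 0.816, adjusted p = 0.0206), from 984.8, 1012 and 964.7 CPM with PBS to 629.5, 673 and 822.8 CPM. Cat, catalase, which splits hydrogen peroxide, rose 1.34-fold (95% CI 1.17 to 1.53, adjusted p = 0.0211), from 66.44, 65.71 and 67.9 CPM to 93.51, 95.76 and 78.61 CPM. Of 8 genes for NADPH supply, 0 were called, with 1 higher and 3 lower at an unadjusted p under 0.05 and a median log2 fold change of -0.11.

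Of 18 other genes commonly listed as NRF2 targets, Ftl1, ferritin light chain, was the only gene called, 1.39-fold higher (95% CI 1.18 to 1.65, adjusted p = 0.029), and the list had a median log2 fold change of 0.06. Its reads are uncertain because near-identical processed copies of ferritin genes exist. Ftl1 was at 549.5, 689.2 and 645.7 CPM with PBS and at 891.2, 980 and 754.9 CPM with Tβ-MCA. The 12 tested genes of ATF4 and amino acid stress, a second known input to Slc7a11, had 3 called higher and 0 lower, with a median log2 fold change of 0.20. Without Tβ-MCA replicate 5 these were 4 higher and 2 lower. With the replicate block, whose pairing with PBS is not established, they were 1 higher and 0 lower. Ddit3, the stress factor CHOP, rose 1.38-fold (95% CI 1.18 to 1.62, adjusted p = 0.0257), from 79.21, 96.4 and 88.1 CPM to 116.4, 141.1 and 107.7 CPM. Trib3, a pseudokinase induced by ATF4 and CHOP, rose 1.92-fold (95% CI 1.34 to 2.74, adjusted p = 0.0324), and Phgdh, which opens serine synthesis, rose 1.5-fold (95% CI 1.19 to 1.9, adjusted p = 0.039), both named after their values were seen. In the other direction, Sesn2, sestrin 2, had a fold of 0.752 (95% CI 0.612 to 0.924, adjusted p = 0.0826, and 0.00515 without Tβ-MCA replicate 5) and Ddit4, an inhibitor of mTORC1 signalling, 0.754 (95% CI 0.609 to 0.934, adjusted p = 0.097, and 0.000568 without that sample). Slc7a11 itself had a fold of 0.842 in this comparison.

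With Tβ-MCA against TCA, 7 of the 86 list genes were called, 4 higher and 3 lower, beside 3.51% of all genes. Chac2 (0.664-fold, 95% CI 0.534 to 0.827), Glrx (0.73-fold, 95% CI 0.623 to 0.856) and Prdx5 (0.773-fold, 95% CI 0.679 to 0.879) fell. Cat (1.28-fold, 95% CI 1.13 to 1.46), Ftl1 (1.38-fold, 95% CI 1.17 to 1.64) and Ddit3 (1.37-fold, 95% CI 1.17 to 1.6) rose, as did Phgdh (1.63-fold, 95% CI 1.29 to 2.06). With the replicate block the count of list genes called was 28, 12 higher and 16 lower, beside 13.9% of all genes. In the comparisons of TCA with PBS, GCA with PBS and GCA with TCA, edgeR, DESeq2 and limma called 0 of the 86 list genes, and edgeR gave an unadjusted p under 0.05 to 3, 3 and 0 of them, beside 3.26%, 3.53% and 2.46% of all genes.

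**Figure D4:**
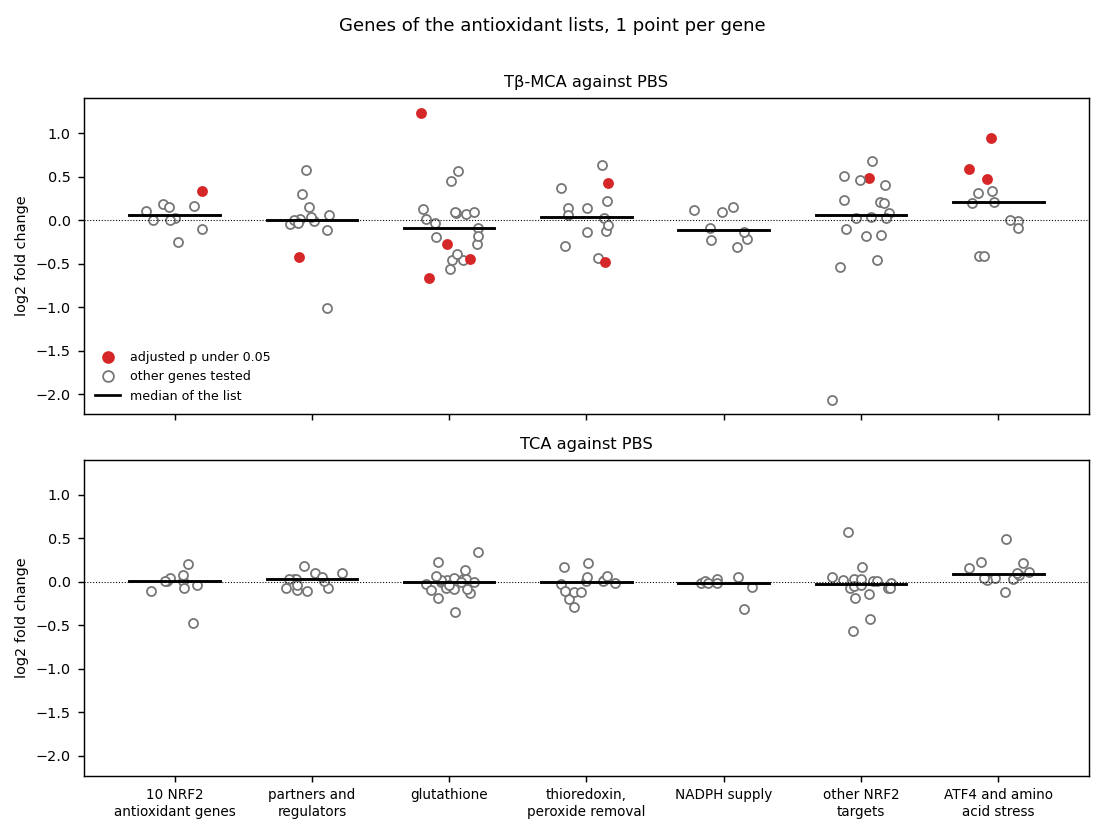
Log2 fold change of each tested gene of the 10 NRF2 antioxidant genes and of the 6 wider lists, Tβ-MCA against PBS above and TCA against PBS below, with 1 point per gene, filled red where adjusted p was under 0.05 and a black line at the list's median. With Tβ-MCA 12 points are filled, 1 of the 10 antioxidant genes and 11 of the 86 others, in both directions, and with TCA 0 are filled.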

How the data were processed

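RNA of 12 neutrophil samples was sequenced by the authors, whose processing notes name Trimmomatic 0.36, STAR 2.5.3a, featureCounts, Subread 1.5.1 and GRCm38. The deposited counts are raw featureCounts totals over a gene's merged exons, and the authors' RPKM values divide them by exon length and library size, which a recalculation from the counts matched within a relative difference of 1.3e-06. The library kit kept the strand, while the strand setting of the counting is not given in the sources used here. Columns named GA were taken as the GCA samples, because the series text uses GA for that treatment. The dose of Tβ-MCA is 10 μM in the labels and 200 μM in the methods text.

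The members and lists were chosen with earlier results of these data known. All 10 members were named in each comparison, with up to 8 list genes of lowest p among those at an adjusted p under 0.05. CPM is the count scaled to the library's total on the genes tested times its TMM normalization factor. Tests used edgeR 4.0.16 in R 4.3.3 (TMM, filterByExpr by group, robust quasi-likelihood test, 1 fit of all 12 samples) with Benjamini-Hochberg adjustment over 16761 genes, and a gene was called at an adjusted p under 0.05. The SE is the log2 fold change over the root of F, and 95% intervals use the t distribution with the fit's degrees of freedom. Levels between genes were compared in RPKM. Alternatives were other size factors, filters, DESeq2 1.42.0, limma 3.58.1 on log2(RPKM + 1), the 2 groups alone, a replicate block and each sample left out. The fits were tested on simulated data.

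The labels number the PBS samples 3, 5 and 6 and those of the 3 bile acids 3, 4 and 5. Deviations from group means of same-numbered samples correlated at 0.103 to 0.358 between Tβ-MCA and TCA over 3 pairs. Between GCA and TCA they correlated at 0.108 to 0.404, also over 3 pairs. Differently numbered pairs had a mean of -0.1 and -0.12, but single ones reached 0.16 (Tβ-MCA 4 with TCA 5) and 0.142 (GCA 4 with TCA 5). Deviations within a group sum to 0 for each gene. A mean below 0 in differently numbered pairs therefore follows from a mean above 0 in same-numbered pairs and adds nothing to it. Only the pair numbered 3 exceeded every differently numbered pair in both comparisons. The pair numbered 5 did so between GCA and TCA (0.225) but not between Tβ-MCA and TCA (0.149). The numbers were thus used as a block on the data and not on a label, and the pairing is not established. Only 2 numbers are shared with PBS. Samples of a group differed beyond sampling noise, with a chi-square per degree of freedom of 4.79 or more. Promoter motifs were counted with Python 3.11.15.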

Additional observations from a re-analysis of the deposited data

How the results depend on the processing

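Over the 10 members and 5 comparisons, 679 of 700 alternative values kept their side of the threshold, 13 lost and 8 gained a call, and no called value changed direction. Most of the 700 belong to results uncalled in the main fit, and all 13 losses were calls of Keap1. Against PBS, Keap1 with Tβ-MCA stayed called in 7 of 8 other settings and in 1 of 6 fits with a sample left out. Against TCA these were 6 of 8 and 1 of 6. Of the 679, 616 also kept their direction, and 63 values of 23 uncalled fold changes crossed 0 within the interval of the main value, at log2 sizes of at most 0.0967 before and 0.124 after. For Tβ-MCA against PBS, the 1278 genes called became 2406 without a filter on low counts, 2103 with DESeq2, 0 with only the 2 groups compared and 0 to 3076 with each sample left out, where 3076 was without Tβ-MCA replicate 5. The 1 member called became 0 with only the 2 groups compared and 0 to 1 with each sample left out, and the 11 list genes called became 24 without a filter, 22 with DESeq2, 0 with only the 2 groups and 0 to 24 with each sample left out. For Tβ-MCA against TCA, the 588 genes called became 2077 without a filter, 1623 with DESeq2, 0 with limma, 72 with only the 2 groups, 2322 with the replicate block and 0 to 2619 with each sample left out, where 2619 was without Tβ-MCA replicate 5. The 1 member called there became 0 with limma, 0 with only the 2 groups, 4 with the block and 0 to 2 with each sample left out, and the 7 list genes became 23 without a filter, 16 with DESeq2, 0 with limma, 0 with only the 2 groups, 28 with the block and 0 to 21 with each sample left out. Without a filter, 37 genes and 1 member (Slc7a11) were called for TCA against PBS, 36 genes and 1 member (Slc7a11) for GCA against PBS and 42 genes for GCA against TCA, in place of 0, and DESeq2 called 1 gene for TCA against PBS. The cause of these changes was not tested.

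Deviations of same-numbered samples correlated with those of PBS at a mean of 0.206 for Tβ-MCA, 0.33 for TCA and 0.339 for GCA. The replicate block shares only 2 numbers with PBS, and there too the pairing is not established. In that fit 3 genes and 1 member, Slc7a11 (log2 fold change -0.58, adjusted p = 0.0119 by edgeR, over alternatives 0.00024 to 1), were called for TCA against PBS, and 2 members, Keap1 and Slc7a11 (log2 fold change -0.36, adjusted p = 0.0197, over alternatives 0.0197 to 0.528), for Tβ-MCA against PBS. For GCA against PBS the block gave Slc7a11 an adjusted p of 0.141, over alternatives 0.00688 to 1. The block changed no other call of a member, apart from those against TCA given above. With 3 samples a group, the intervals of the members are the limit on what these data resolve, from 0.921 to 1.09 for the fold of Gsr with GCA against PBS to 0.706 to 1.24 for that of Nqo1 with Tβ-MCA.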

Other observations

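Levels of some NRF2 antioxidant genes went with the replicate number of the label. Nqo1 was lowest in the sample numbered 3 in all 4 groups, at 12.36 CPM with PBS, 15.79 CPM with TCA, 9.004 CPM with Tβ-MCA and 12.28 CPM with GCA, where the other 8 samples lay between 14.18 and 17.79 CPM. Gclm was highest in the sample numbered 3 with PBS (64.09 CPM), TCA (61.82 CPM) and GCA (59.29 CPM) but not with Tβ-MCA (53.78 CPM). Gclc was highest there with PBS (32.19 CPM), TCA (30.09 CPM) and Tβ-MCA (36.19 CPM) but not with GCA (27.6 CPM). The summed eosinophil markers were likewise highest in the sample numbered 3 with PBS (253.7 CPM), TCA (224.8 CPM) and GCA (249 CPM), and at 84.77 CPM with Tβ-MCA, in the middle of that group. What the number stands for is not in the labels, and this pattern was chosen after its values were seen and was not tested.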
